A study of Mus musculus with 6 samples.

Results

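The neuronal stage (Day 7) of P19 cells was compared with the undifferentiated stage (Day 0), and genes and exons across the array were described. The comparison used 4 of the 6 arrays of the series, 2 for each day. The 2 arrays of Day 10 (early glial stage) entered the estimate of the spread and the mean level that decided which genes were tested. P19, a line of mouse embryonal carcinoma cells, was grown in α-MEM with 10% FBS. Day 0 cells were untreated. Day 7 cells had been aggregated with 1 µM retinoic acid (RA) for 4 days and then grown for 3 further days without a named agent. Both days came from the same line, and RA, aggregation and time in culture changed together, so that their parts in a difference cannot be told apart. Each array was 1 total RNA sample of a whole culture, and each day had biological duplicates.

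An embryonal carcinoma cell resembles the pluripotent cell of the early embryo. RA binds nuclear receptors that sit on DNA and is known for activating Hox genes, which give nerve cells and mesoderm their place along the body axis. P19 cultures treated in this way are known to form neurons, with glia and fibroblast-like cells beside them.

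The array measured each exon by its own probeset, as a linear intensity. Of 228090 probesets, 208093 carried 1 gene symbol and gave 16263 genes. The level of a gene on an array was the median of log2(intensity + 16) over its probesets, and limma on all 6 arrays tested the 11384 genes that reached the 30th percentile of mean level. A gene was called at a Benjamini-Hochberg adjusted p under 0.05 over all tested genes together with a fold of at least 2. Changes are given as log2 differences of Day 7 minus Day 0 with their SE (n = 2 arrays per day). The offset of 16 makes the fold of a dim gene smaller than that of its intensity. The median intensity was 183 and 204 on the arrays of Day 0 and 216 and 215 on those of Day 7. The duplicates correlated at 0.951 (Day 0) and 0.973 (Day 7) across genes, and 557 and 106 tested genes differed by over 2-fold between them. The Day 10 duplicates, which entered the estimate of the spread behind each SE and p-value, lay farthest apart. They correlated at 0.93, and 1362 tested genes differed by over 2-fold between them.

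The stage labels were checked against markers. Of 17 tested neuron markers, 15 rose and none fell, with a median change of 2.52. Of 13 tested embryonal carcinoma and pluripotency genes, 7 fell (7 to 10 when 1 array was left out) and none rose, with a median of -1.86. The summed intensity of the neuron markers was 5524 and 4552 on Day 0 and 25339.7 and 29027 on Day 7. Since the RNA was taken from whole cultures, fewer cells of a type and less RNA per cell cannot be told apart in any result below. Neurofilaments Nefl and Nefm did not pass, with changes of 0.26 and 0.70. Sox2, which serves both pluripotent cells and neural progenitors, stood at 10.31 and 11.07 on Day 0 and 10.43 and 10.25 on Day 7 (adjusted p = 0.636).

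The sequences below are those that the study's supplementary exon table lists for a probeset, which can be shorter than the exon it lies in. They were chosen because the exon moved while its gene did not pass, and were limited to sequences of at most 100 bases with an open reading frame. They show 3 exons with a larger share on Day 7 (Pcnt, Aff3 and Clta) and 1 with a smaller share (Cit). The values of these exons are given with the other exons later.
Cit: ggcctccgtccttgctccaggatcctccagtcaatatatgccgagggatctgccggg
Pcnt: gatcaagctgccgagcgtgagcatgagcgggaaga
Aff3: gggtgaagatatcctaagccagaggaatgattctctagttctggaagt
Clta: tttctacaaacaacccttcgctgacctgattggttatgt

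Across the array, more genes were called higher than lower on Day 7. On Day 7, 1279 genes were higher (11.2% of those tested) and 512 were lower (4.5%). Thus 71.4% of the called genes were higher. That share was 58.6% when the arrays were centred on their medians and 63.4% after quantile normalization, since these scalings moved the median change of all tested genes from 0.10 to -0.05 and -0.01. The middle of the distribution was narrow, with 58.0% of tested genes within 0.5 of no change and a 5th to 95th percentile range of -1.03 to 1.64. At a fold of 8 or more, 139 genes were higher and 27 lower. At a fold of 16 or more, there were 48 and 9. Genes called higher started from a median level of 6.97 and reached 8.91, whereas genes called lower went from 9.47 to 7.78. Leaving out Day 7 replicate 1 or 2 left 746 and 750 genes called higher and 261 and 260 called lower. Without Day 0 replicate 1, 824 were called higher, and without Day 0 replicate 2, 335 were called lower.

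**Figure D1:**
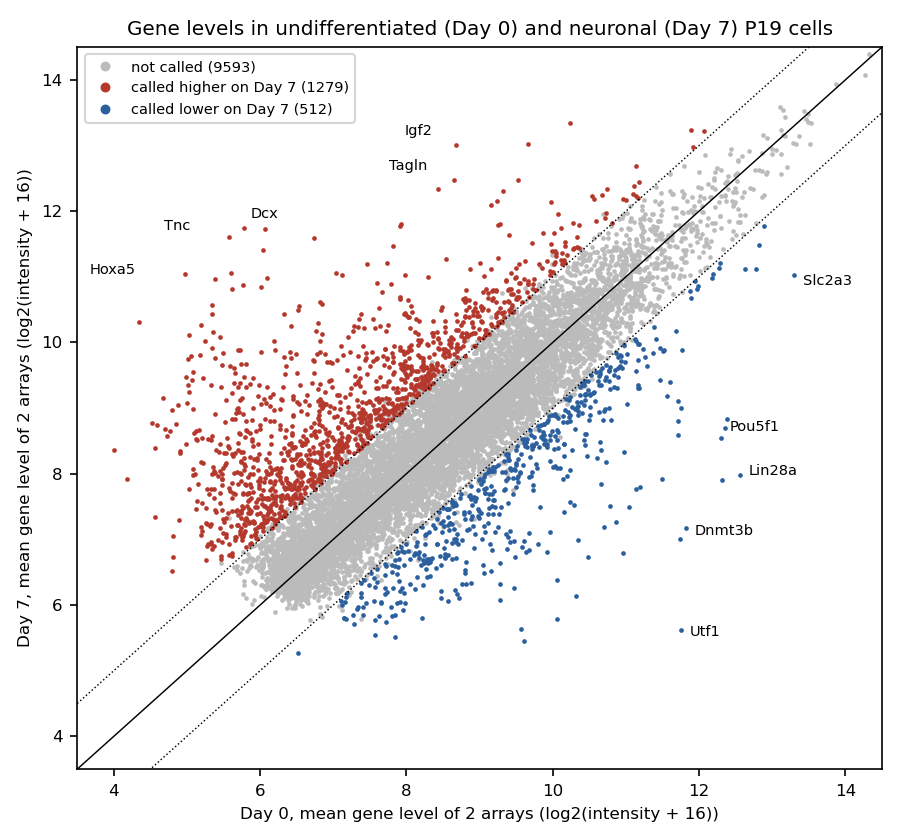
Mean level of each tested gene on Day 0 (x axis) against Day 7 (y axis), both as log2(intensity + 16) and as the mean of 2 arrays; the solid line is equality and the dotted lines are a fold of 2. The 1279 genes called higher reach down to the lowest Day 0 levels, while most of the 512 genes called lower lie at middle to high Day 0 levels.

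Among the 15 largest rises were 3 Hox genes, 3 collagens and several genes of the matrix and of migrating cells. Hoxa5 was at 4.00 and 5.94 on Day 0 and 10.89 and 11.19 on Day 7, a rise of 6.07 ± 0.49 (adjusted p = 2.07e-06). Tnc, the matrix glycoprotein tenascin C, went from 5.53 and 5.63 to 11.42 and 11.79, by 6.03 ± 0.34 (adjusted p = 4.18e-07). The days were far apart for both genes, although the Day 0 arrays of Hoxa5 differed from each other by more than those of Tnc. On Day 0 replicate 1 Hoxa5 was at the floor of 4.00 (intensity 0.0222), so that the size of its rise depends on the offset. Dcx encodes doublecortin, a microtubule protein of migrating neurons. Its levels were 5.46 and 6.08 on Day 0 and 11.80 and 11.68 on Day 7, a rise of 5.97 ± 0.44. The other rises of this size were Hoxc5 (5.97), Anxa1 (5.65), Prrx1 (5.58), Plk2 (5.46), Igfbp5 (5.37), Col12a1 (5.22), Dner (5.19), H19 (5.11), Col14a1 and Tm4sf1 (both 5.08), Hoxb2 (5.07) and Col3a1 (4.88). Prrx1 is a homeobox gene of mesenchyme, and Dner is a neuronal membrane protein related to Notch ligands. H19, an imprinted non-coding RNA, differed between the Day 7 arrays, at 9.89 and 11.86 against 5.43 and 6.10 on Day 0.

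The 15 largest falls included genes of the pluripotent state, and only that of Utf1 reached the size of the rises above. Utf1, a chromatin protein of embryonic stem cells, stood at 11.68 and 11.82 on Day 0 and at 5.27 and 5.98 on Day 7, a change of -6.13 ± 0.69 (adjusted p = 3.05e-05). The other large falls were Gdf3 (-4.73), Dnmt3b (-4.65), Lin28a (-4.58), Pim2 (-4.41), 1700019D03Rik (-4.26), Enpp3 and Foxh1 (both -4.17), Mcf2 (-4.15), Efhd1 (-3.92), Car14 and Pou5f1 (both -3.76), Map7d3 (-3.66), Trh (-3.66) and Prtg (-3.60). Gdf3 is a ligand of the TGF-beta family, Foxh1 is the DNA-binding partner of Smads in Nodal signalling, and Lin28a blocks the maturation of let-7 miRNA. Trh, the precursor of thyrotropin-releasing hormone, was at 12.51 and 12.21 on Day 0 and at 8.31 and 9.10 on Day 7. Pou5f1 (Oct4) still differed between the Day 7 arrays, at 7.73 and 9.36, both under its 12.07 and 12.54 on Day 0.

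**Figure D2:**
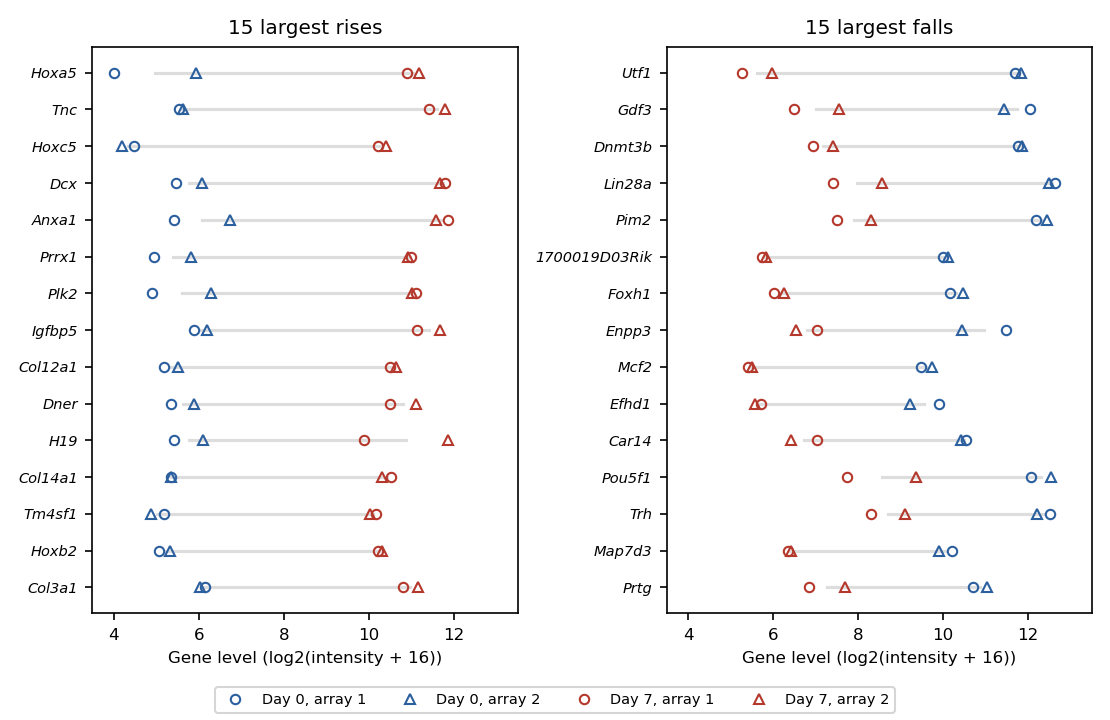
Level of the 15 genes with the largest rise (left) and the 15 with the largest fall (right) on each array, as log2(intensity + 16); circles and triangles are the 2 arrays of a day and the grey line joins the means. The days do not overlap for any of the 30 genes, which were chosen by the size of their change. Of all 11384 tested genes, 4195 were higher and 2949 lower without overlap. The arrays of one day lie farthest apart for Hoxa5 on Day 0 and H19 on Day 7.

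Genes that went from near the bottom to the upper part of the array were nearly all gains. A gene counted as switched on if it was under the 20th percentile of all genes on both Day 0 arrays and over the 60th on both Day 7 arrays. This held for 47 genes, all of them called, and the reverse held for 3 genes (Mcf2, Efhd1 and Ms4a4d, of which the last was not tested). The rule itself demands a large change on both arrays of each day, so that the calls add no evidence. The 10 switched-on genes with the largest change were Tnc, Hoxc5, Col12a1, Col14a1, Tm4sf1, Hoxb2, Emp1, Ccdc80, Inhba and Nr2f1. Inhba, which encodes the activin A subunit, went from 4.85 and 5.26 to 9.76 and 9.83. Nr2f1, a nuclear receptor known to respond to RA (COUP-TFI), went from 4.65 and 5.37 to 9.55 and 9.95. Mcf2, a guanine nucleotide exchange factor, went the other way, from 9.47 and 9.73 to 5.40 and 5.50.

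Hox genes rose in blocks. Of 28 tested Hox genes, 20 were higher (17 to 20 when 1 array was left out) and none lower, with a median change of 2.59. In the Hoxa cluster, Hoxa2 to Hoxa7 rose, and Hoxa9 did not pass (0.28). In the Hoxb cluster, Hoxb2 to Hoxb9 rose by 2.67 (Hoxb3) to 5.07 (Hoxb2), and the far member Hoxb13 by 1.07. Hoxb9 had the highest Day 7 level of the family, at 11.55 and 11.62 against 6.42 and 7.05. Its neighbour at the other end of the cluster, Hoxb1, known as an early target of RA, was between 6.39 and 6.63 on the 4 arrays (change -0.03). In the Hoxc cluster, Hoxc4, Hoxc5, Hoxc6 and Hoxc8 rose by 1.90 to 5.97, while Hoxc13 did not pass. Of the 6 tested members of the Hoxd cluster, Hoxd3 rose (1.66), and Hoxd1, Hoxd9, Hoxd10, Hoxd11 and Hoxd13 had changes between -0.55 and 0.35. Paralogues of near sequence can share signal on an array, and annotation of cross-hybridization was not used here.

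**Figure D3:**
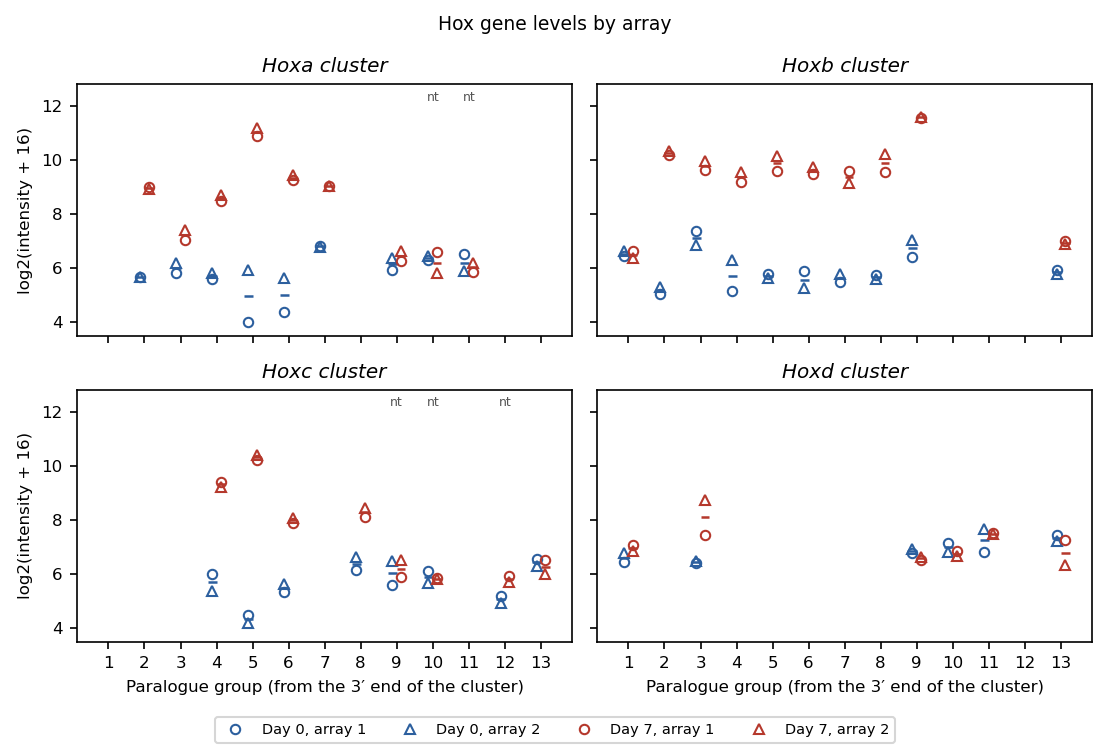
Level of each Hox gene on the array as log2(intensity + 16), by cluster and paralogue group; open symbols are the 2 arrays of each day, short lines are day means and nt marks genes under the filter. Hoxb2 to Hoxb9 lie above 9 on both Day 7 arrays, and in Hoxd only Hoxd3 was called.

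TALE homeobox proteins bind DNA together with Hox proteins, and 4 of 9 tested rose (2 without Day 0 replicate 1 or either Day 7 array). Meis1 went from 6.96 and 7.10 to 11.12 and 11, by 4.03 ± 0.31 (adjusted p = 1.56e-06). Meis2 rose by 1.97, Pknox1 by 1.15 and Pbx3 by 1.06. No other tested member passed.

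Positional genes of the brain moved in both directions. Of 19 tested genes of forebrain, midbrain and hindbrain patterning, 5 rose and 1 fell, and 3 rose without Day 7 replicate 2. Otx2, the homeobox gene of the anterior embryo, fell from 11.65 and 11.34 to 7.59 and 8.26, by -3.57 ± 0.46 (adjusted p = 0.0001). Rises were found for Pax2 (2.30), Lhx2 (1.71), Pax5 (1.57), Emx2 (1.38) and Pax8 (1.36). En1 was at 8.55 and 8.25 on Day 0 and 8.17 and 8.65 on Day 7. Among 18 tested genes of the dorsal and ventral neural tube, 4 rose and 1 fell. The risers were the dorsal genes Msx1 (3.04), Pax3 (2.94), Lmx1a (2.44) and Atoh1 (1.45). Gsx2 fell by -1.34. The ventral genes Nkx6-1 and Olig2 did not pass, with changes of -0.59 and 0.06.

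Genes that carry, make or sense RA were split. Of 20 tested, 7 rose and 2 fell, with a median of 0.21, and 4 rose without Day 0 replicate 1. Rarb, an RA receptor that RA itself is known to induce, went from 6.62 and 6.28 to 9.31 and 9.05 (2.73 ± 0.31, adjusted p = 3.38e-05). Stra6, the membrane receptor for retinol-binding protein, went from 7.22 and 6.73 to 9.64 and 9.72 (2.70 ± 0.33). The binding proteins moved apart: Crabp1 rose by 2.07 and Crabp2 fell by -1.97. Enzymes that form RA or its precursor rose (Aldh1a2 1.74, Aldh1a1 1.40, Rdh10 1.21), and so did Dhrs3 (1.71), which turns retinal back into retinol. Receptor Rarg fell by -1.41, and Rara was between 9.5 and 9.68 on all 4 arrays. Cyp26a1, the enzyme that breaks RA down, was at 6.66 and 7.58 on Day 0 and 5.88 and 5.97 on Day 7 (adjusted p = 0.225).

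The promoter of Rarb holds a sequence of the kind that RA receptors bind, which is why it is shown. Promoters were read from RefSeq (GRCm38.p6), from 250 bases before to 50 after the start, and 9146 of 11384 tested genes had one. Both strands were searched for 2 half-sites spaced by 5 bases (the half-site AGGTCA repeated, the half-site AGTTCA repeated, or GGTTCA with the half-site AGTTCA after it). Of all these promoters, 0.0219% held such a pair, that is 2 promoters, and Rarb was the one that belonged to a called gene. The pair in Rarb is exactly the searched form GGTTCA with AGTTCA after it. The hit therefore describes this promoter, and the low share over all promoters is no test of it. The match, in capitals, begins 53 bases before the start of Rarb, in chr14:16575493-16575549 on the minus strand.
Rarb: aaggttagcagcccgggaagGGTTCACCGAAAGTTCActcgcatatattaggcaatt

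The same windows were searched for other motifs. The core of the RE1 element, TTCAGCACC, which the repressor REST of neuronal genes is known to bind, was in 0.328% of all promoters. It was in 5 of 973 promoters of genes called higher (Crip2, Dner, Gadd45a, Ppfia3 and Scg2) and in 1 of 393 of genes called lower (Map4k1). The TATA box, TATAAA, was in 7.43% of all promoters, in 9.15% of those of genes called higher and in 18.5% of those that rose 8-fold or more (17 of 92). The promoters of that last group had a median GC content of 57.2% and 13 CpG dinucleotides, against 61.0% and 21 over all tested genes. The 23 promoters of genes that fell 8-fold or more also had a median of 13 CpG dinucleotides, with 61.0% GC. The octamer, ATGCAAAT, was in 1.41% of all promoters, in 1.75% of those of genes called higher and in 2.8% of those of genes called lower. At 8-fold or more it was in 5 of 92 promoters of genes that rose (5.43%) and in 2 of 23 of genes that fell (8.7%). These shares rest on few promoters. The window of Dner, which had the largest rise among the holders of the RE1 core, is shown, with the core in capitals, at chr1:84696343-84696391 on the minus strand.
Dner: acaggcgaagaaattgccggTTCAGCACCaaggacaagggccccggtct

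Transcription factors of neuron formation rose in 11 of 23 tested cases (9 to 12 when 1 array was left out), and none fell. Pou3f2 (Brn2) went from 5.38 and 5.67 to 8.96 and 9.28, by 3.60 ± 0.32 (adjusted p = 4.29e-06). Ebf3 rose by 3.5, Myt1 by 3.19, Nhlh1 by 2.98 and Myt1l by 2.25. The proneural genes Neurog1 and Neurog2, which act early and briefly, did not pass (0.85 and 0.21). Sox11 was already at 9.91 and 10.66 on Day 0 and was at 10.60 and 10.80 on Day 7.

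Of 28 tested tubulins and microtubule-associated proteins, 17 rose and 1 fell. Map2, the dendritic protein, went from 6.86 and 6.84 to 10.47 and 10.71 (3.74 ± 0.30). Mapt (tau) rose by 3.5 and Stmn4 by 3.03. Single tubulin genes moved apart. Tubb3, the neuronal β-tubulin, rose by 2.17 from 10.29 and 9.65. Tuba4a fell from 10.55 and 11.03 to 7.38 and 7.64 (-3.27 ± 0.34, adjusted p = 1.52e-05). Tubb5 and Tuba1c did not pass, with changes of 0.13 and 0.39 at levels of 12.95 or more. Tubulin genes are close copies, so that their values may include shared signal.

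Cell adhesion molecules of the L1, contactin and neurexin families, which join growing neurites to each other, rose in 16 of 22 cases (9 to 16 when 1 array was left out, the lowest without Day 7 replicate 2). Cntn1 went from 5.67 and 4.78 to 9.43 and 9.48 (4.24 ± 0.34), and Chl1 from 4.81 and 4.88 to 8.41 and 9.11 (3.92 ± 0.32). Negr1 rose by 3.11, Cadm4 by 2.60 and Cadm2 by 2.08. Axon guidance genes were more mixed, with 19 of 60 higher and 2 lower. Receptors led the rises. Epha3 went from 5.07 and 4.98 to 9.26 and 9.23, Nrp1 from 5.24 and 5.71 to 9.80 and 9.52, and Robo2 from 5.6 and 5.94 to 9.45 and 9.50. Dcc (the netrin receptor) and Robo3 both rose by 3.53. For none of these receptors did the days overlap, which was also true of 4195 tested genes that were higher and 2949 that were lower. Receptors Neo1 and Plxna1, already above 9.8 on Day 0, had changes of 0.20 and 0.01. The 2 falls were Epha1 (-1.68) and Unc5a (-1.49).

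Of 27 tested genes of vesicles and release, 10 rose and none fell. Slc17a6, the vesicular glutamate transporter VGLUT2, went from 5.29 and 4.88 to 9.66 and 9.43 (4.46 ± 0.32, adjusted p = 8.91e-07). Rab3c was at the floor of 4.00 on both Day 0 arrays and at 8.05 and 8.66 on Day 7. Syt4 rose by 3.68 and Snap25, a part of the fusion machinery, by 3.40. The transporters of other transmitters did not pass: Slc17a7 (0.05), Slc32a1 (0.76) and Slc18a3 (-1.26). Among 38 tested transmitter receptors, 6 rose and 2 fell, while 31 of the 69 on the array were not tested. These shares, 15.8% and 5.26%, were not far from the 11.2% and 4.5% of all tested genes. The median change was 0.11, against 0.10 over all tested genes. The risers were the AMPA receptor subunits Gria2 (3.87) and Gria1 (2.81), the glycine receptor subunit Glrb (3.25), the NMDA receptor subunit Grin2b (2.5), Gabbr1 (1.75) and Chrnb2 (1.13). The falls were Grin2a (-1.43) and Chrna7 (-1.37), and neither was called without Day 7 replicate 2. Thus Grin2b went from 5.61 and 4.94 to 7.63 and 7.91, while Grin2a was higher on Day 0.

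Of 38 tested voltage-gated channel genes, 9 rose and 2 fell. The sodium channel genes Scn3b (3.27) and Scn3a (2.52), the potassium channel genes Kcnd3 (2.10) and Kcnd2 (2.03) and the calcium channel gene Cacna1g (2.01) had the largest rises. Kcnab3 (-1.88) and Kcnd1 (-1.11) fell. Of 17 tested genes of secretory granules and peptide hormones, 11 rose (7 to 11 when 1 array was left out, the lowest without Day 0 replicate 1 or Day 7 replicate 2) and only Trh fell. Scg3 (secretogranin) went from 5.12 and 5.03 to 8.94 and 9.04 (3.91 ± 0.30). Adcyap1 rose by 2.59, the processing enzyme Cpe by 2.26 and somatostatin, Sst, by 2.21. Npy was at 7.50 and 8.43 on Day 0 and 8.47 and 9.75 on Day 7, and the nearest arrays of the 2 days almost met (adjusted p = 0.142).

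RNA-binding proteins that steer splicing in neurons rose in 13 of 24 cases (10 to 13 when 1 array was left out), and 1 fell, with a median of 1.37. Rbfox1 went from 6.03 and 6.23 to 8.93 and 9.14 (2.90 ± 0.32, adjusted p = 2.77e-05). Celf4 rose by 2.71, Elavl4 by 2.66, Elavl3 by 2.52 and Celf2 by 2.15, and Rbm38 fell by -1.28. The repressor Ptbp1, known to hold back neuronal exons, was at 11.94 and 12 on Day 0 and 11.57 and 11.48 on Day 7 (adjusted p = 0.403). Among the general splicing factors, 3 of 32 tested SR proteins and hnRNPs rose (Srsf3 1.43, Hnrnph1 1.26, Hnrnpa1 1.03) and none fell. The share that rose, 9.38%, was under the 11.2% of all tested genes. None of these rises was called without Day 0 replicate 1 or either Day 7 array.

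Genes of the extracellular matrix rose and none fell. Of 35 tested collagens, 15 rose and none fell, and of 40 tested matrix glycoproteins, proteoglycans and their enzymes, 19 rose and none fell (median change 1.25). Col12a1 went from 5.18 and 5.52 to 10.5 and 10.64, and Col3a1 from 6.16 and 6.04 to 10.80 and 11.16. Col1a1 was at 6.80 and 6.22 on Day 0 and at 9.75 and 11.25 on Day 7, with the Day 7 arrays apart from each other. The basement membrane chains Col4a1 and Col4a2 did not pass (0.67 and 0.88), while Col4a5 and Col4a6 rose by 1.57 and 1.48. Cartilage collagens Col2a1 and Col9a1 did not pass (0.17 and 0.25). Igfbp5 went from 5.88 and 6.19 to 11.14 and 11.68, Postn (periostin) rose by 4.49, Dcn (decorin) by 3.86 and Thbs1 by 2.95. Laminin Lamb1 was between 10.08 and 10.55 on all 4 arrays.

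Of 23 tested genes of smooth and cardiac muscle, 10 rose (6 to 10 when 1 array was left out, the lowest without Day 7 replicate 2) and none fell. The risers include the smooth muscle genes Actg2 (4.03), Tagln (3.82), Acta2 (3.10) and Myl9 (2.89). Tagln went from 8.69 and 8.62 to 12.45 and 12.5, and Acta2 from 10.06 and 10.41 to 13.39 and 13.28. The cardiac genes Actc1, Nkx2-5 and Mef2c did not pass, with changes of -0.17, 0.14 and -0.09. The probesets of Nkx2-5 differed, and 1 of them went from intensities of 93.3 and 135 to 1008 and 1455. The epithelial genes Epcam (-3.36) and Cdh1 (-2.44) fell, while Cdh11 (3.87), Twist1 (3.33), Snai2 (3.17), Twist2 (2.0), Fn1 (1.57) and Vim (1.36) rose. Cdh2 was at 10.79 and 10.60 on Day 0 and 11.56 and 11.62 on Day 7 (adjusted p = 0.0607). The summed intensity of the muscle genes was 11739 and 14369 on Day 0 and 39449 and 38708 on Day 7, and the part of such cells in the other results was not tested.

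Markers of other cell types were read in the same way. Of 18 tested neural crest genes, 8 rose and 2 fell (none fell without Day 7 replicate 2). Tfap2b went from 4.92 and 5.22 to 9.76 and 9.09 (4.35 ± 0.33), whereas Sox10, a defining crest gene, was between 6.64 and 6.80 on all 4 arrays. Of 12 tested astrocyte and radial glia markers, 5 rose and 1 fell. Fabp7 of radial glia went from 5.12 and 5.64 to 9.54 and 9.97, and Nes rose by 1.65. Gfap, the astrocyte filament, was at 5.65 and 5.98 on Day 0 and 6.13 and 6.90 on Day 7, and Aldh1l1 fell by -1.92. Of 7 tested oligodendrocyte genes, only Pdgfra rose (1.34), a call lost without Day 0 replicate 1 or Day 7 replicate 1, and Olig1, Olig2 and Mbp did not pass. Of 10 tested genes of endothelium and blood, Kdr (3.39) and Runx1 (2.41) rose. Apoe, placed on the endoderm list, fell from 12.38 and 12.39 to 8.91 and 8.75, and of the 19 tested members of that list 4 rose, but none without Day 0 replicate 2 or Day 7 replicate 2.

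**Figure D4:**
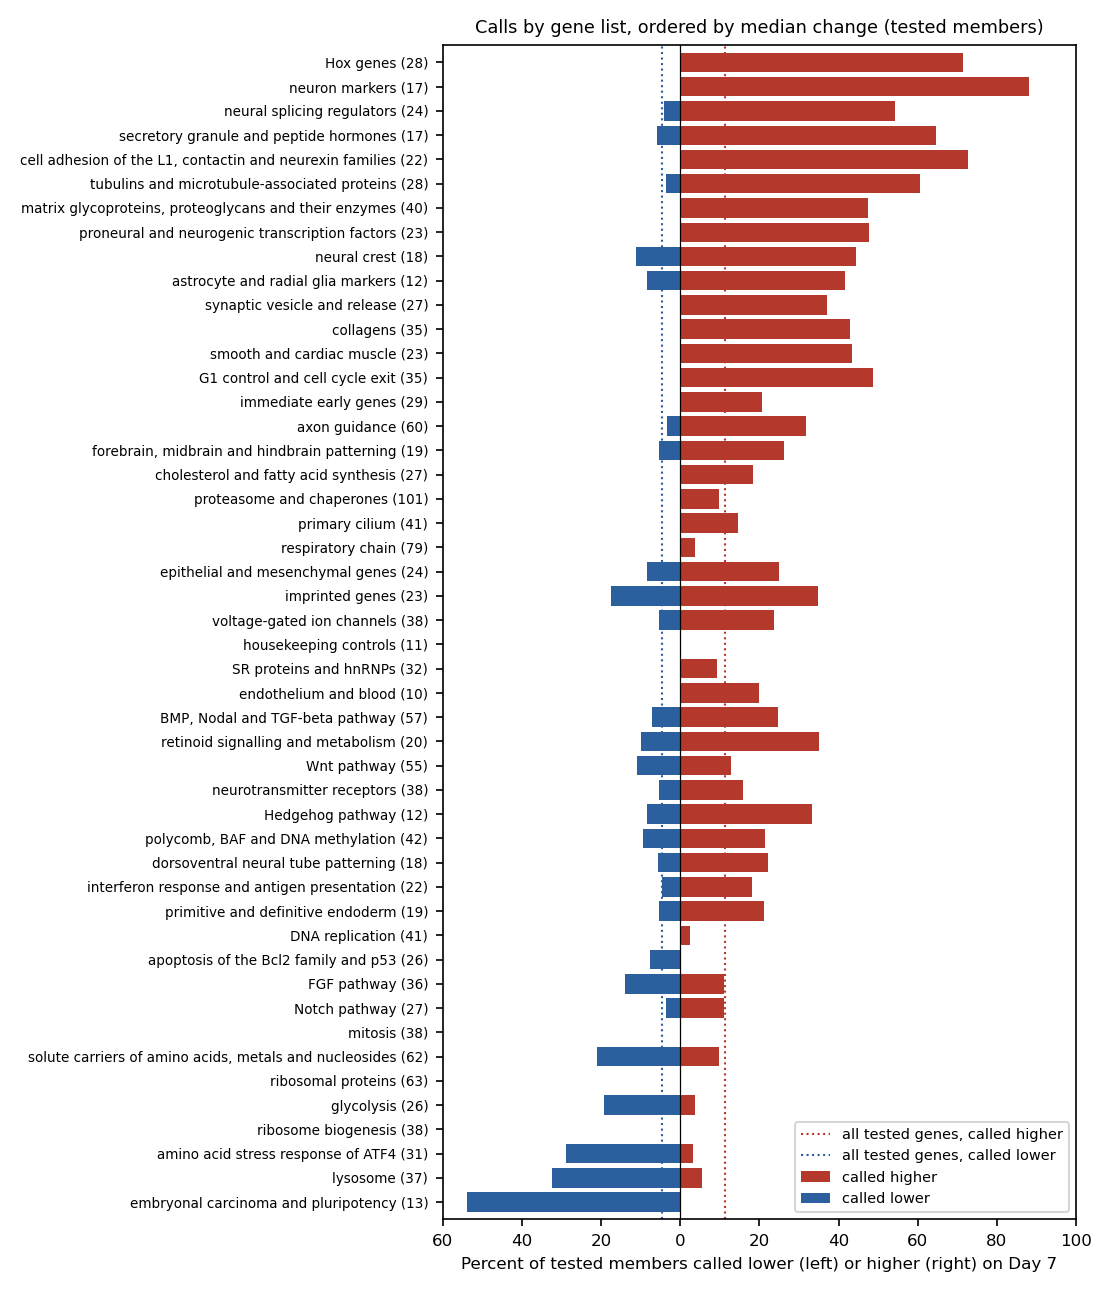
Percent of tested members called higher (right) or lower (left) on Day 7 for each gene list with at least 10 tested members, ordered by median change, with the number tested in brackets; dotted lines are the shares over all tested genes, 11.2% higher and 4.5% lower. Hox, neuron and adhesion genes reach farthest to the right, and pluripotency, lysosome and ATF4 genes farthest to the left.

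No gene of 38 tested for mitosis was called in either direction, with a median change of -0.06, and 1 of 41 tested DNA replication genes rose (Tk1, 1.70) with a median of 0.02. Top2a was at 10.94 and 11.37 on Day 0 and at 11.31 and 11.04 on Day 7, and Plk1 at 11.26 and 11 against 10.82 and 10.94. The days overlapped for Top2a, and for Plk1 they were less than 0.5 apart. Of 35 tested genes of G1 control and cell cycle exit, 17 rose (11 to 17 when 1 array was left out, the lowest without Day 7 replicate 1) and none fell. Cdkn2c (p18) went from 4.07 and 4.97 to 8.87 and 8.66 (4.25 ± 0.35, adjusted p = 2.57e-06). The growth arrest genes Gadd45g (3.09) and Gadd45b (2.69) and the inhibitor gene Cdkn2b (2.17) rose as well, and so did the cyclin genes Ccne2 (2.06) and Ccnd2 (1.56), which favour division. Cdkn1b was between 10.02 and 10.42 on all 4 arrays.

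Genes of nutrient uptake and breakdown held more falls than rises. Of 62 tested solute carriers of amino acids, metals and nucleosides, 13 fell (7 to 13 when 1 array was left out, the lowest without Day 7 replicate 1) and 6 rose. Slc7a7 went from 9.28 and 9.67 to 6.22 and 6.29 (-3.22 ± 0.40). Slc7a3, a carrier of arginine and lysine, went from 11.74 and 11.69 to 8.6 and 9.0 (-2.92 ± 0.31, adjusted p = 2.07e-05). Slc38a3 (-2.87) and the zinc and manganese carrier gene Slc39a8 (-2.83) fell too, while the zinc carrier gene Slc39a6 rose by 2.47. Of 31 tested genes of the amino acid stress response that ATF4 controls, 9 fell (4 to 10 when 1 array was left out, the lowest without either Day 7 array) and 1 rose. These include Sesn2 (-1.96), Stc2 (-1.88), Trib3 (-1.69) and asparagine synthetase, Asns (-1.34), and Nupr1 rose by 1.68. Atf4 itself had a change of -0.19, which did not pass. Slc7a3, Slc7a5 and Slc6a9, which fell, are on both lists.

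Lysosomal genes fell in 12 of 37 tested cases (5 to 13 when 1 array was left out, the lowest without Day 7 replicate 1) and rose in 2, with a median of -0.55. Neu1 (neuraminidase) went from 10.02 and 10.46 to 8.01 and 8.10 (-2.19 ± 0.36, adjusted p = 0.000718). Manba fell by -1.93, Tpp1 by -1.80 and progranulin, Grn, by -1.52. Ids, the enzyme iduronate sulfatase, rose by 1.90, and Ctso by 1.28. Of 26 tested glycolysis genes, 5 fell and 1 rose, and 2 fell without Day 7 replicate 2. Both glucose transporters were among the falls. Slc2a3 went from 13.26 and 13.34 to 11.04 and 11.01 (-2.27 ± 0.32), and Slc2a1 from 12.63 and 12.62 to 11.07 and 11.16 (-1.51 ± 0.30). Lactate carrier Slc16a1 (-1.53) and hexokinase Hk2 (-1.47) fell as well, but Gapdh, Pgk1 and Pkm did not pass (-0.30, -0.14 and -0.50). The oxygen sensor Egln1 rose by 1.55.

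Of 27 tested genes of cholesterol and fatty acid synthesis, 5 rose (2 to 6 when 1 array was left out, the lowest without either Day 7 array) and none fell. Hmgcs1, the synthase ahead of HMG-CoA reductase, went from 10.39 and 10.67 to 12.21 and 12.26 (1.71 ± 0.30), and Hsd17b7 rose by 1.73 and Nsdhl by 1.27. The fatty acid synthase gene Fasn was at 11.87 and 11.75 on Day 0 and 11.14 and 11.62 on Day 7. Of 79 tested respiratory chain genes 3 rose (Ndufc2 1.28, Atp5g3 1.25, Ndufa5 1.24), under the 11.2% of all genes. None rose without Day 0 replicate 1 or either Day 7 array, and 7 rose without Day 0 replicate 2. No ribosomal protein gene of 63 and no ribosome biogenesis gene of 38 was called, with medians of -0.24 and -0.50. Within ribosome biogenesis Mybbp1a was at 12.12 and 12.04 on Day 0 and 11.19 and 11.08 on Day 7, short of a fold of 2. Rps2 stayed between 14.06 and 14.28. None of 11 tested housekeeping genes was called, with a median of 0.25 against 0.10 over all tested genes.

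In the BMP, Nodal and TGF-beta pathway, 14 of 57 tested genes rose (7 to 15 when 1 array was left out, the lowest without Day 7 replicate 2) and 4 fell. Ligands and inhibitors led the rises: Inhba (4.74), the BMP inhibitor Nog (4.16, from 5.15 and 4.02 to 8.70 and 8.79), Tgfb2 (2.62) and Tgfb3 (2.09). The falls were the Nodal-side genes Gdf3 (-4.73), Acvr2b (-1.90) and Tdgf1 (-1.86), together with Tgfbr3 (-1.39). In the Hedgehog pathway, the co-receptor genes Gas1 (3.05), Boc (2.5) and Cdon (2.48) and the inhibitor gene Hhip (1.28) rose, and the receptor gene Ptch1 fell by -1.45. Shh and Gli1 did not pass (-0.17 and -0.55). In the Wnt pathway, 7 of 55 tested genes rose (12.7% against 11.2% of all genes) and 6 fell. The rises numbered 3 without Day 0 replicate 1 or Day 7 replicate 2 and 10 without Day 0 replicate 2, and the falls 2 without Day 7 replicate 1. Wnt1, a gene of the dorsal midline, went from 5.91 and 6.08 to 8.42 and 9.06, and the inhibitor gene Wif1 from 6.20 and 5.40 to 8.95 and 8.18. The falls were Sfrp2 (-1.90), the co-receptor gene Lrp5 (-1.65), receptor genes Fzd5, Fzd8 and Fzd4 and the factor gene Tcf7. Among 36 tested FGF pathway genes, 4 rose (11.1%, near the 11.2% of all genes) and 5 fell. Without Day 7 replicate 1 there was 1 rise, and without Day 7 replicate 2 there were 2 falls. The falls include Fgfr4 (-1.60) and the target genes Etv5 (-1.48), Etv1 (-1.45) and Dusp4 (-1.12). In the Notch pathway, 3 of 27 tested rose (Dner 5.19, Hes1 1.25, Lfng 1.07), a share of 11.1% near that of all genes, and 1 rose without Day 0 replicate 1 or Day 7 replicate 2. Numb fell by -1.06, a call lost when any 1 array of Day 0 or Day 7 was left out, while Notch2 and Rbpj did not pass.

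Of 42 tested genes of polycomb, BAF and DNA methylation, 9 rose (2 to 10 when 1 array was left out, the lowest without Day 7 replicate 2) and 4 fell. Dnmt3b, the de novo DNA methyltransferase, went from 11.77 and 11.86 to 6.94 and 7.4 (-4.65 ± 0.48, adjusted p = 1.55e-05), whereas Dnmt1, which copies methylation after replication, was between 10.56 and 10.87 on all 4 arrays. Cbx7, the polycomb subunit known from embryonic stem cells, went from 9.99 and 9.93 to 6.94 and 7.29 (-2.85 ± 0.31). Jarid2 (-1.47) and Ezh1 (-1.32) fell, and Ezh2 did not pass (0.41). BAF subunits known from postmitotic neurons rose, Actl6b by 2.29 and Smarcd3 by 1.80, and Bcl11a by 1.66. Of 23 tested imprinted genes, 8 rose and 4 fell, and 4 rose without Day 0 replicate 1 or Day 7 replicate 2. Igf2 went from 8.30 and 9.05 to 13.04 and 12.98 (4.34 ± 0.33, adjusted p = 1.24e-06). Its neighbour H19 rose too, as given above. Nnat rose by 2.81 ± 0.78, with the Day 7 arrays far apart at 8.95 and 11.76. The call of Nnat was lost in limma without Day 7 replicate 2 (change 1.40, adjusted p = 0.0913) or without Day 0 replicate 1 (adjusted p = 0.0738). Magel2 (-1.90), Impact (-1.88), Phlda2 (-1.72) and Grb10 (-1.22) fell.

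Of the tested proteasome and chaperone genes, 9.9% rose against 11.2% of all genes (10 genes, 4 without Day 7 replicate 1 and 18 without Day 0 replicate 2). They include the chaperone of the endoplasmic reticulum Hspa5 (1.62) and Dnajb4, which went from 6.25 and 6.55 to 9.89 and 9.83. Of 29 tested immediate early genes 6 rose (3 without Day 0 replicate 1 or Day 7 replicate 1), led by Nr4a3 (2.91) and Fosl2 (2.83). Of 22 tested interferon and antigen presentation genes 4 rose (1 without Day 7 replicate 2), led by Jak2 (1.84), and Bst2 fell by -2.51, from 7.49 and 9.64 to 5.94 and 6.18. Without Day 0 replicate 2 the call of Bst2 was lost (limma, adjusted p = 0.0551). Of 41 tested genes of the primary cilium 6 rose, among them Foxj1 (1.56), a share of 14.6% against 11.2%, and 1 rose without Day 7 replicate 1. Of 26 tested genes of apoptosis, Perp (-1.70) and Trp73 (-1.3) fell and none rose. None of 5 tested germ line genes was called.

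Called genes also lay side by side on the chromosomes. With the 11356 tested genes of known place in their order along each chromosome (RefSeq, GRCm38.p6), there were 34 runs of 3 or more neighbours that were all higher, holding 129 genes, and 1 run that was lower, Clpb, Phox2a and Inppl1 on chromosome 7. Of all tested genes 11.2% were called higher and 4.5% lower, which by itself makes runs of higher genes the more frequent. How many runs these shares alone would give was not worked out. The longest runs were the Hoxb cluster on chromosome 11 (9 genes) and the Hoxa cluster with Skap2 and Hoxaas2 on chromosome 6 (8 genes). Antisense genes such as Hoxaas2 can share signal with the gene they overlap. Next were runs of 6: Gask1b, Gria2, Glrb, Pdgfc, Ctso and Gucy1b1 on chromosome 3, which hold receptor subunits for glutamate and glycine, and Tceal9, Bex3, Tceal1, Morf4l2, Rab9b and Zcchc18 on chromosome X. The protocadherin-β genes on chromosome 18, single-exon adhesion genes of near sequence, gave runs of 6 (Pcdhb14, Pcdhb16, Pcdhb18, Pcdhb19, Pcdhb20 and Pcdhb21) and 4 (Pcdhb6, Pcdhb7, Pcdhb8 and Pcdhb10). The imprinted neighbours Peg3 and Usp29 formed a run with Clcn4 and 2810047C21Rik1 on chromosome 7. Other runs joined Col3a1 with Col5a2 and Slc40a1, Cdkn2a with Cdkn2b and Elavl2, and Tubb2a with Tubb2b and Pxdc1. Leaving out chromosome Y, with 3 tested genes and none called, the share of tested genes called higher ran from 6.85% on chromosome 17 to 18.5% on chromosome 18 and 16.5% on chromosome X.

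At the level of single exons, 171067 probesets were tested, of which 8528 were higher (4.99%) and 2909 lower (1.7%). Without Day 7 replicate 1 these were 2193 and 370, and without Day 7 replicate 2 they were 1727 and 300. In 1202 genes called higher with at least 4 tested probesets, the median share of probesets called higher was 43.8%. In 86 of them every probeset was called, in 132 none was, and in 5 a probeset went the other way. For the 493 genes called lower the median share was 28.6%, with 21, 90 and 1 genes of these kinds. Among 8775 genes not called, 557 had at least 1 called probeset. The changes of the probesets of a gene scattered with a median SD of 0.59 in called genes and 0.29 in the others.

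The splicing index (SI) was used to separate an exon from its gene. It is the change of log2(exon) minus that of its gene. The threshold of the study was used, a share of the gene at least 2.55-fold larger or smaller on Day 7. The test covered 7832 genes, each with 4 or more probesets (116816 in all), and 87.3% of SI values lay within 0.5 of 0. Upward, 422 probesets were past this threshold with an unadjusted p under 0.05 (0.361%), and downward 438 were (0.375%). No probeset passed the adjusted threshold in limma (lowest adjusted p 0.233), and 5439 (4.66%) had an unadjusted p under 0.05. The exons below are therefore descriptions of these 4 arrays. The shares by gene class also required an unadjusted p under 0.05. In genes called higher, 3.36% of probesets were past the threshold downward and 0.845% upward. In genes called lower the shares were 0.397% and 2.05%. In genes not called they were 0.128% and 0.239%. With the arrays set against each other by replicate number, 195 probesets were past the threshold upward and 225 downward in both, of which 158 and 188 were bright enough to be ranked (a mean intensity of at least 100 on the higher day and 16 on the other).

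The exons with the largest rise of SI belonged mostly to genes whose level did not pass, but so did 103256 of the 116816 tested probesets. The share past the threshold upward was smallest in such genes, at 0.239%, against 0.845% in genes called higher and 2.05% in genes called lower. An exon of Clasp2, a protein that stabilises microtubule ends, had intensities of 34.6 and 25.3 on Day 0 and of 974 and 1123 on Day 7, an SI of 4.33 ± 0.35, while its gene changed by 0.20. The exon of Pcnt (pericentrin, of the centrosome) printed above went from 131 and 138 to 1462 and 1516 (SI 3.78), with a gene change of -0.45. In both genes the exon was low on both Day 0 arrays and high on both Day 7 arrays. The exon of Aff3, a nuclear protein, went from 60 and 28.7 to 422 and 519 (SI 3.24). That of Srpk2, a kinase of SR proteins, went from 79.8 and 84.0 to 932 and 939 (SI 2.92). Exons of Nkx2-5 (SI 3.12) and Evx2 (SI 2.82) went from 93.3 and 135 to 1008 and 1455 and from 13.1 and 53 to 451 and 526. Dtna had an SI of 4.20 with intensities of 7.7 and 37.7 against 200.5 and 177, while its gene fell by -1.68. The exon of Otx2 was flat, at 336 and 255 against 235 and 222, and its SI of 3.23 came with the fall of the gene. In Sema3c (SI 2.94) and Adamtsl1 (SI 2.89) 1 Day 0 array was near 0, so that the SI of the replicate numbers differed, at 1.69 and 4.20 and at 1.79 and 3.98.

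Falls of SI were of 2 kinds. In the first the exon itself went down. An exon of St8sia2, which adds polysialic acid to Ncam1, was at 612 and 452 on Day 0 and at 109 and 78.5 on Day 7 (SI -4.32) although its gene rose by 2.0. The exon of Cit (citron kinase) printed above went from 1399 and 2472 to 54.6 and 61.0 (SI -4.16), with a gene change of -0.51. Exons of P3h2 (319 and 534 against 48.2 and 58.9), Ank3 (354 and 1888 against 118 and 146), Gbx2 (656 and 890.1 against 35.9 and 134) and Exosc4 (552 and 448 against 20.1 and 46.0) were of this kind too. The Day 0 arrays of the Ank3 exon were over 5-fold apart. In the second kind the exon stayed while its gene rose. An exon of Igf2 was at 289 and 225 on Day 0 and at 373 and 391 on Day 7 with a gene change of 4.34, and 3 probesets of Col1a2 had SI values of -3.63, -3.40 and -3.34 with a gene change of 3.90. The Col1a2 probesets were at 228 to 1914 on Day 0 and 259.6 to 3463 on Day 7, and so changed little beside the gene.

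**Figure D5:**
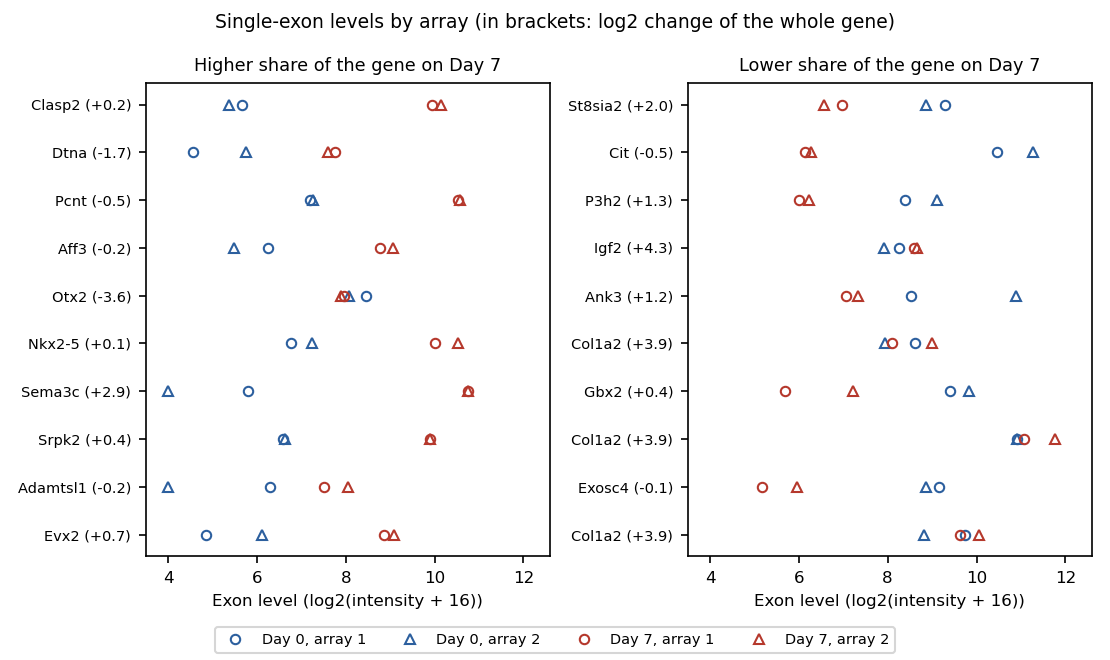
Level of single exons on each array as log2(intensity + 16), for the 10 probesets with the largest rise (left) and the 10 with the largest fall (right) of the splicing index; symbols are the 2 arrays of each day, and the number in brackets is the log2 change of the whole gene. Clasp2, Pcnt and Srpk2 separate the days by over 3 with a gene change near 0, while Otx2, Igf2 and Col1a2 stay nearly level as their genes move.

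Of 259 exons of the study's table with a sequence, 38 met the same rule, 36 of them off chromosome 18, and 27 of those had at most 100 bases and an open frame. The table was drawn up from the same samples, and the direction of its exons is no independent evidence. The Clta exon, in a clathrin light chain, went from 189.8 and 173 to 1119 and 1437 (SI 2.74 ± 0.33), with a gene change of -0.04. Kif21b (SI 2.62), Epb41l3 (2.26), Apbb2 (2.19), G3bp2 (2.19), Snap91 (2.15) and Tpm1 (2.06) had exons of the same direction. The Tpm1 exon went from 637 and 712 to 6461 and 4404, while its gene changed by 0.89. The Snap91 exon, in a clathrin assembly protein of the synapse, went from 24.0 and 43.9 to 427 and 773 in a gene that itself rose by 1.45. Without Day 0 replicate 2, 1368 probesets were past the threshold upward and 822 downward at an unadjusted p under 0.05.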

How the data were processed

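Total RNA of P19 cells was measured on Affymetrix Mouse Exon 1.0 ST arrays. The authors deposited exon-level intensity values on a linear scale. The study's methods name PLIER and the submitters' processing notes name RMA with Affymetrix Expression Console (versions not given), and which was used for the values could not be settled. The values were used as deposited, with no further normalization. Neither detection p-values nor cross-hybridization annotation was used.

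Probesets with 1 symbol were joined to genes. Of 16285 symbols, 14111 were current in RefSeq (GRCm38.p6), 2131 were updated and 43 were kept. The model, in limma 3.58.1 (R 4.3.3), held 1 mean per day over all 6 arrays. Single probesets had to reach the 25th percentile, and genes the 45th for SI. The gene test was checked on simulated data. Of 100 genes with a true change of 1.5 in size it called 25, and of 100 with a change of 3 it called 89. Of 11184 genes without a change it called 4. A gene that did not pass may therefore still have changed. Genes were named by rule: the 15 largest rises and falls, up to 5 called and 4 bright members per list, the 10 most changed switched genes, runs, and the 10 exons with the largest SI each way. Other members were named after their values were seen. The gene lists and the rule were chosen with earlier results of these data known. Alternatives were other offsets, scalings, filters, gene summaries, arrays in the fit, and leaving out each array.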

Additional observations from a re-analysis of the deposited data

Results flagged for a closer look

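Probesets without a gene symbol enter none of the gene results, and 195 of the 9073 tested were called higher on Day 7 (2.15%) and 80 lower (0.882%). Over all tested probesets the shares were 4.99% and 1.7%.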

How the results depend on the processing

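When 1 array was left out, genes called higher ranged from 746 to 1372 and lower from 260 to 578, probesets higher from 1727 to 12858 and lower from 300 to 6648, and exons past the splicing index threshold from 391 to 1368 upward and from 441 to 822 downward. The upper ends for genes and probesets came from leaving out an array of Day 10. This is the same test as the fit of only the 4 arrays of Day 0 and Day 7 (12858 probesets higher and 6648 lower). With 1 mean per day, a single Day 10 array adds nothing to the spread. With arrays centred on the median, 780 genes and 6125 probesets were lower, and after quantile normalization 4888 probesets were lower. Without a filter, 1824 probesets were lower, and 1656 exons were past the threshold upward and 2183 downward. With the filter at the 50th percentile these were 231 and 225 exons, and with an offset of 50, 239 exons upward. The causes were not tested. No count or named gene was reversed, and of all 1791 called genes 1, E130308A19Rik, had the opposite sign under median polish, where it was not called. Of the 194 named genes and list members called with a change of 2 or more in size, 191 stayed called without any 1 array, and Bst2, Nnat and Slit1 did not (Slit1 without Day 7 replicate 2, adjusted p = 0.0897, limma). The lowest adjusted p of a splicing index, 0.233 as reported, was 0.0439 with an offset of 1 and 0.0295 without a filter.

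The replicate numbers did not pair all the arrays, and deviations of same-numbered arrays correlated at -0.0756 between Day 0 and Day 7, 0.329 between Day 0 and Day 10 and -0.0254 between Day 7 and Day 10. With the number as a replicate block, 1414 genes were higher and 592 lower, and all 1791 calls were kept. With 2 arrays per day the precision is limited, 8.9% to 11.89% of probesets lay under the offset on each array, and the p-values measure the spread between duplicates of one cell line.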
